A study of Mus musculus with 4 samples.

Results

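The insulin-like growth factor (Igf) genes described here were the 2 ligands Igf1 and Igf2, the 2 receptors Igf1r and Igf2r, and the 6 binding proteins Igfbp2, Igfbp3, Igfbp4, Igfbp5, Igfbp6 and Igfbp7. They were chosen by gene symbol as a family, with earlier results of these data known. They make 10 of the 22086 genes with a usable expression estimate. RNA-seq had been performed on palatal mesenchyme of 4 mouse embryos at embryonic day 13.5 (E13.5), when the palatal shelves grow beside the tongue, to ask which genes depend on the forkhead transcription factor Foxf2. The mutant group was 2 Foxf2-/- Osr2RFP/+ embryos (mutant 1 and mutant 2), and the control group was 1 Osr2RFP/+ embryo (control 1) and 1 Foxf2+/- Osr2RFP/+ embryo (control 2). All were littermates on a mixed strain background. Each also carried an Osr2 allele with a red fluorescent protein (RFP) knock-in, so no embryo had 2 intact Osr2 alleles. RFP is made where Osr2 is active, and the RFP-positive cells of microdissected shelves were sorted by flow cytometry before RNA extraction. The Foxf2 null allele is present in every cell of the mutant, not only in the palate. With 1 embryo for each control genotype, the effect of a single null allele has no replicate, and every error below rests on 2 against 2 embryos.

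Igf1 and Igf2 are secreted growth factors that act mainly through Igf1r, a receptor tyrosine kinase that signals to the phosphoinositide 3-kinase and Ras pathways. Igf2r carries no kinase and takes Igf2 to the lysosome. The binding proteins hold the ligands outside the cell, where they can limit access to the receptor or store ligand that proteases later release, and Igf2 in particular drives growth of the embryo.

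The labels were first checked against genes with a known place. Foxf2 had an expression value of 85.4 fragments per kilobase and per fixed number of mapped reads (FPKM) in control 1, 45.1 in control 2, 1.41 in mutant 1 and 2.28 in mutant 2 (log2 fold change -5.03, SE 0.373, limma adjusted p = 0.0202). The summed level of 9 palatal mesenchyme markers lay between 1148 and 1380 FPKM in the 4 embryos. Of the 9, 4 were lower in both mutants than in both controls, as were 37.7% of all genes tested. That share depends on the scale of the libraries, as described below. The summed levels of other cell types' lists were 7.64 to 9.54 FPKM for 8 epithelial markers, 0.480 to 1.87 for 7 endothelial markers, 44.3 to 49.8 for 5 pericyte markers, 0.406 to 0.882 for 7 skeletal muscle markers, 7.95 to 14.5 for 6 macrophage markers, 30.6 to 34.2 for 6 nerve and glia markers, and 92.1 to 102.8 for 7 cartilage and bone markers. Red blood cell RNA varied far more: 8 globin and erythroid genes summed to 172 FPKM in control 1, 1163 in control 2, 944 in mutant 1 and 2498 in mutant 2. The 4 embryos had nearly the same low level of Xist, from 0.0270 to 0.0455 FPKM, and expressed the Y-linked genes, so sex did not differ between groups. In bulk RNA of sorted cells, more cells of a type and more RNA per cell cannot be told apart, and this holds for each result below.

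FPKM divides by transcript length, so levels could be ordered between genes. Igf2 had the highest level of the 10 genes in every embryo, ranking between 43 and 72 among all 22086 genes, and Igfbp4 was second in every embryo. The lowest Igf2 value, 532.5 FPKM, lay above the highest Igfbp4 value, 162 FPKM, and the lowest Igfbp4 value, 125 FPKM, lay above the Igfbp3 values. Below these, Igfbp3, Igf1, Igfbp5, Igfbp2, Igf1r and Igf2r followed in the order of their control means, and each neighbour in the order overlapped the next over the 4 embryos. Igfbp5 ranked 5 and 4 among the 10 genes in controls 1 and 2, and 3 in both mutants. Igfbp7 came next at 4.12 to 5.80 FPKM, and Igfbp6 was last, at under 0.4 FPKM in every embryo.

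**Figure D1:**
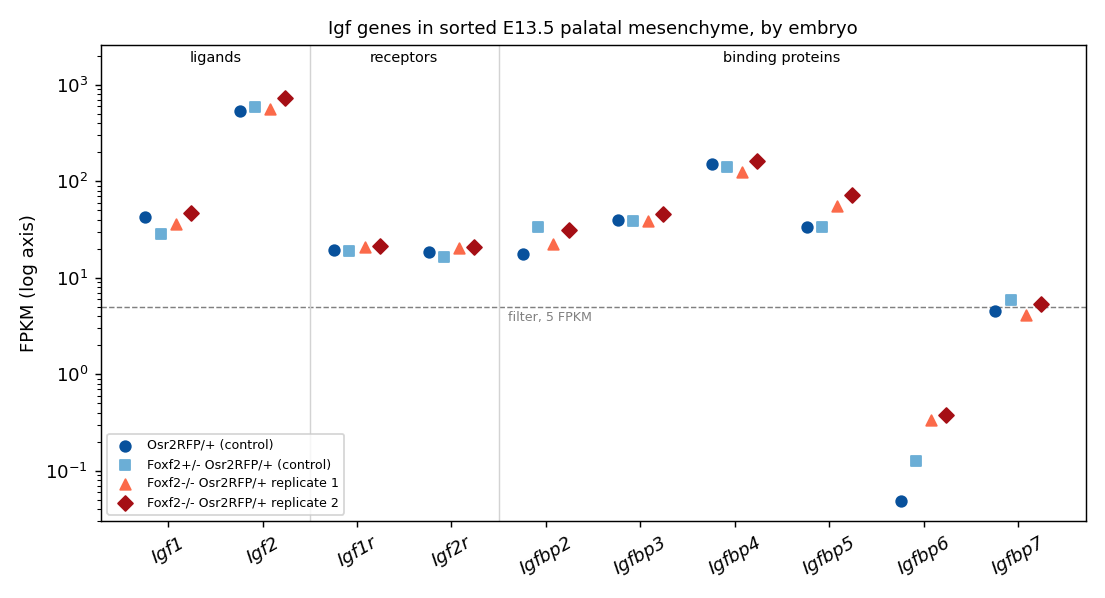
Expression level (FPKM, log axis) of the 10 Igf genes, with 1 point for each embryo and the dashed line at the 5 FPKM needed in at least 1 embryo for testing. Igf2 and Igfbp4 stand above the other genes in all 4 embryos, Igfbp5 lies at 33.3 and 33.9 FPKM in the controls, against 55.2 and 72.1 FPKM in the mutants, and Igfbp6 lies under 0.4 FPKM throughout.

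Of the 9 genes past the filter on low levels, Igfbp5 differed most between the groups: its level was 1.87-fold higher in the Foxf2-/- embryos. Igfbp6, below the filter, is described further on. Igfbp5 encodes a secreted binding protein that also attaches to extracellular matrix and binds both ligands. Its transcript, on the minus strand at chr1:72904639-72921439 of mm9, had 33.3 FPKM in control 1, 33.9 in control 2, 55.2 in mutant 1 and 72.1 in mutant 2. The 2 controls were nearly equal although 1 of them carried a Foxf2 null allele, and both mutants lay above both. The group means were 33.6 ± 0.416 (SD, n = 2) and 63.6 ± 11.9 (SD, n = 2), and on the log2 scale, where the folds were taken, the mutant mean was 1.89-fold control 1 and 1.86-fold control 2. The log2 fold change was 0.91 (SE 0.142), and the 95% confidence interval of the fold ran from 1.45 to 2.42. The limma test across the 7698 genes past the filter gave an unadjusted p of 0.00172 and an adjusted p of 0.276, so Igfbp5 did not pass the adjusted threshold of 0.05. Among those genes it ranked 130 by fold from the highest and 48 by p.

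The adjusted p moved with the settings. With no filter it was 0.484, and with a filter of 1 FPKM it was 0.337. When transcript entries shorter than 200 bases were left out, which leaves 7399 genes, the adjusted p of Igfbp5 was 0.0553 and it ranked 9 by p, and with limma's robust variance estimation it was 0.0461, which passes. Leaving out any single embryo left the log2 fold change between 0.71 and 1.10, with an adjusted p of 0.135 to 0.803. In the marker lists, 3 of the 7 endothelial markers were higher in both mutants than in both controls and 0 lower, with each under 1 FPKM in every embryo. The 7 summed to 0.480 FPKM in control 1, 0.936 in control 2, 1.02 in mutant 1 and 1.87 in mutant 2, in the same order as Igfbp5. The 8 epithelial markers summed to 7.64, 8.15, 8.34 and 9.54 FPKM, also in that order. Of the 8, 3 were higher in both mutants than in both controls and 0 lower, but these 3 reached at most 1.07 FPKM. All 8 lay below the 5 FPKM filter. Among the genes past it, 8.76% were higher in both mutants. The erythroid sum was 172 FPKM in control 1, 1163 in control 2, 944 in mutant 1 and 2498 in mutant 2. Between the controls, single endothelial markers differed in both directions. Emcn was at 0 FPKM in control 1 and 0.346 in control 2, and Tek was at 0.241 and 0.0102 FPKM. The part of these cell types in the Igfbp5 difference was not tested.

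Igfbp5 and Igfbp2 lie next to each other on chromosome 1, with 5593 bases between them and their transcript ends facing each other. The sequence before the start of each is shown because the genes are neighbours with unlike values over the embryos, and because Foxf2 is a forkhead factor, whose family binds DNA around the letters TGTTTA. Both runs are RefSeq reference sequence of build GRCm38.p6, 250 bases that end at the transcript start, read 5′ to 3′ on the gene's strand. They are chr1:72874866-72875115, minus strand, for Igfbp5, and chr1:72824230-72824479 and chr1:72825137-72825386, plus strand, for the 2 listed starts of Igfbp2. Matched to the mm9 sequence, the Igfbp5 window ends at the base before the start of the measured transcript. The start of the measured Igfbp2 transcript lies 24 bases after the end of the first Igfbp2 window, and the second window ends 883 bases downstream of that start. Capitals mark the letters discussed after the sequences.
Igfbp5: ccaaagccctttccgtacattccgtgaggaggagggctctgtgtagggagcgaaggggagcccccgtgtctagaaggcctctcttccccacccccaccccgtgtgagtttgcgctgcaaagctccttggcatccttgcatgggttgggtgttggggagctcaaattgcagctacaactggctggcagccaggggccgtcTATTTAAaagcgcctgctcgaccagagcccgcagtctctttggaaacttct
Igfbp2, first start: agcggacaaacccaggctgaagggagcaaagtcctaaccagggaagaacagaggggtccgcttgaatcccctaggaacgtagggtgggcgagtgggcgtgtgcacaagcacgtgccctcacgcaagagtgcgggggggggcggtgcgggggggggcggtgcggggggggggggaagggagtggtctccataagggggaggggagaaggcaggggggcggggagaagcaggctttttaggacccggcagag
Igfbp2, second start: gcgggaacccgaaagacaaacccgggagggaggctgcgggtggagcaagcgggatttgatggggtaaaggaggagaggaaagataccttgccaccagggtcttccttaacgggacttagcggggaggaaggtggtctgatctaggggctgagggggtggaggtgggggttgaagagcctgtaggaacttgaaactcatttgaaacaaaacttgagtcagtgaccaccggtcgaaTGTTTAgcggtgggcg
In Igfbp5 the capitals are TATTTAA, an AT-rich stretch of the kind found in TATA boxes, whose first base is 51 bases before the start. These letters were searched only after the sequence had been read, and 4.51% of all 32851 promoter windows of 300 bases hold them on either strand. In the second window of Igfbp2 the capitals are TGTTTA, whose first base is 16 bases before that start, and 13.4% of all windows hold these letters. The first Igfbp2 window, the one near the start of the measured transcript, holds neither set. All 10 genes had a window, 14 in all, and TGTTTA was found in 1 of the 14. The longer forkhead letters TGTTTAC and TGTTTGC, searched on both strands, were in 0 of the 14 windows, against 3.65% and 5.07% of all windows. TGTTTAC contains TGTTTA, so these searches overlap, and a match or its absence in so short a window is a description of the letters only.

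Igfbp2, the neighbour, varied more within groups than between them. Igfbp2 encodes a secreted binding protein with a preference for Igf2, and its transcript on the plus strand at chr1:72871077-72899045 (mm9) had 17.6 FPKM in control 1, 33.4 in control 2, 22.3 in mutant 1 and 31.4 in mutant 2. Both mutants lay between the 2 controls, which differed from each other by 0.92 on the log2 scale. The log2 fold change was 0.12 (SE 0.345, limma adjusted p = 0.903), and the interval of the fold, 0.583 to 2.04, included a change of the size seen for Igfbp5. Its order over the embryos was not that of Igfbp5: the ratio of Igfbp5 to Igfbp2 was 1.89 and 1.01 in the controls, against 2.47 and 2.29 in the mutants.

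The other well-expressed binding proteins were near their control levels. Igfbp4, which binds both ligands and is cut by the protease Pappa, lies at chr11:98902574-98913957 (mm9, plus strand). It had 149 and 142 FPKM in controls 1 and 2, and 125 and 162 FPKM in mutants 1 and 2. The 2 mutants stood on either side of both controls, and the log2 fold change of -0.03 had a fold interval of 0.752 to 1.27 (SE 0.145, limma adjusted p = 0.945). Igfbp3, the main carrier of the ligands in adult serum, lies at chr11:7106096-7113926 (mm9, minus strand) and had 39.8, 38.8, 39.1 and 46.0 FPKM in controls 1 and 2 and mutants 1 and 2. Mutant 1 fell inside the control range, and the log2 fold change was 0.11 (SE 0.103, limma adjusted p = 0.670, fold interval 0.895 to 1.30). Igfbp1, which lies 3546 bases from Igfbp3 on chromosome 11, was at most 0.0341 FPKM in any embryo.

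Igfbp7 and Igfbp6 were the least abundant. Igfbp7, a related protein that binds the ligands only weakly, lies at chr5:77778265-77837070 (mm9, minus strand). Its 4.46 and 5.80 FPKM in the controls spanned the 5.39 FPKM of mutant 2, and mutant 1 had 4.12 FPKM. It passed the filter through 1 embryo of each group, and its log2 fold change was -0.11 (SE 0.207, limma adjusted p = 0.842, fold interval 0.637 to 1.35). Igfbp6, which prefers Igf2 as its ligand, lies at chr15:101974617-101979943 (mm9, plus strand) and did not pass the filter. It was listed at 0.0482 FPKM in control 1, 0.126 in control 2, 0.334 in mutant 1 and 0.382 in mutant 2. Both mutants were above both controls, but the deposited coverage times the transcript length gives 84.4, 261, 599 and 764 covered bases, where the commonest low value in the tables, about the length of a read, is 40 to 60 bases. Without the filter, limma over 17497 genes put the Igfbp6 log2 fold change at 1.32, with a pseudocount of 0.1 and an adjusted p of 0.487.

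The make-up of the binding protein pool was then computed as each gene's share of the summed FPKM of the 6 genes. Igfbp5 made up 13.6% and 13.4% of the pool in controls 1 and 2 and 22.5% and 22.7% in mutants 1 and 2. Igfbp4 had the largest share in every embryo, at 61.0% and 55.8% in the controls and 50.8% and 51.1% in the mutants. The groups did not overlap in either share, and the 2 mutants differed by less than 1 percentage point in both. Igfbp3 held 14.5% to 16.3% and Igfbp2 7.22% to 13.2%, with overlapping groups. Because shares sum to the whole, a higher Igfbp5 share lowers the others. The ratio of Igfbp5 to Igfbp4 does not depend on the scale of a library, and it was 0.223 and 0.240 in the controls against 0.442 and 0.444 in the mutants.

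**Figure D2:**
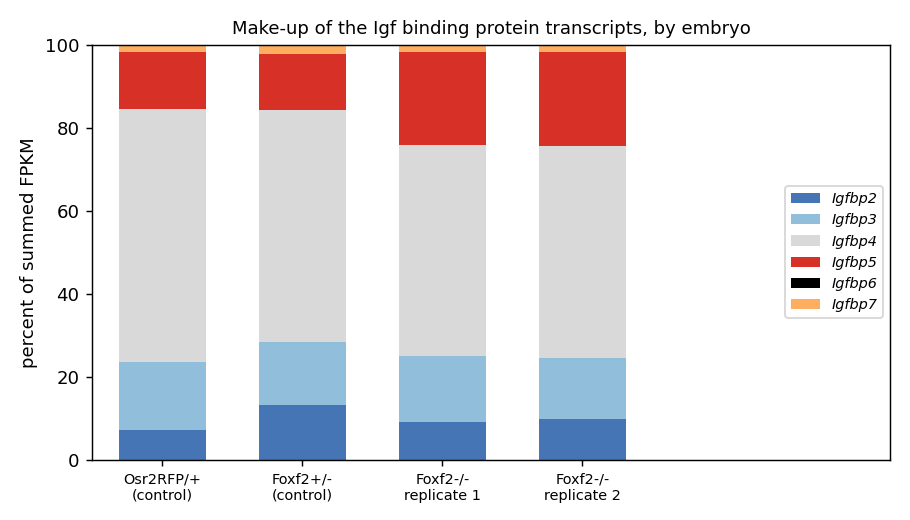
Share of the summed FPKM of the 6 binding protein genes (percent) in each of the 4 embryos, with 1 stacked bar for each embryo and 1 colour for each gene. Igfbp5 takes 13.6% and 13.4% in the controls and 22.5% and 22.7% in the mutants, and Igfbp6 is too scarce to be seen beyond a thin line.

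The whole pool differed less than its make-up. The 6 binding proteins summed to 245 and 254 FPKM in controls 1 and 2 and to 246 and 317 FPKM in mutants 1 and 2, so mutant 1 lay within the control range. Without Igfbp5 the sums were 211 and 220 FPKM in the controls, against 191 and 245 FPKM in the mutants, with the mutants on either side of the controls. The ratio of the summed ligands to the summed binding proteins was 2.35, 2.40, 2.42 and 2.43 in the same order.

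The ligand levels overlapped between the groups. Igf2, the ligand of fetal growth, which in most mouse tissues is expressed from the paternal allele, had 532.5 FPKM in control 1, 580.2 in control 2, 558.5 in mutant 1 and 724.5 in mutant 2. Mutant 1 lay between the controls, and mutant 2 stood above the other 3 embryos. The means were 556 ± 33.7 (SD, n = 2) and 642 ± 117 (SD, n = 2), and the log2 fold change was 0.19 (SE 0.158, limma adjusted p = 0.628, fold interval 0.860 to 1.52). Igf1, the second ligand, had 42.8, 28.1, 35.6 and 46.6 FPKM in the same order. Its lowest value was that of the Foxf2+/- control and its highest that of mutant 2, with a log2 fold change of 0.23 (SE 0.244, limma adjusted p = 0.705, fold interval 0.756 to 1.83). Igf2 exceeded Igf1 by 12.4-fold in control 1, 20.7-fold in control 2, 15.7-fold in mutant 1 and 15.5-fold in mutant 2.

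Both ligand genes are listed as several transcripts, which share sequence, so their separate values are the estimates of the quantification program. Igf1 (chr10:87321801-87399792 of mm9, plus strand) has 5 entries with 2 start sites. The entry of 1087 bases, from the second start, held 50.9%, 53.9%, 51.4% and 50.9% of Igf1 FPKM in controls 1 and 2 and mutants 1 and 2. The 2 entries of about 7 kilobases from the first start held 49.1%, 46.1%, 48.6% and 49.1%, and the other 2 entries were listed at near 0. The 1087-base entry also ends at another place than the long entries, so these shares cannot tell start use from end use. They varied by less than 4 percentage points over the 4 embryos.

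Igf2 (chr7:149836673-149846940 of mm9, minus strand) has 3 entries that start at 3 places and end together. The entry of 3701 bases, whose start is farthest upstream, held 29.1% of Igf2 FPKM in control 1, 41.0% in control 2, 41.4% in mutant 1 and 38.1% in mutant 2. The entry of 3691 bases, with the start farthest downstream, held 54.7%, 41.2%, 42.0% and 43.9%, and the entry of 4038 bases held 16.2% to 18.0%. Control 1 stood apart from the other 3 embryos in the first 2 shares, while the Foxf2+/- control was close to the mutants.

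**Figure D3:**
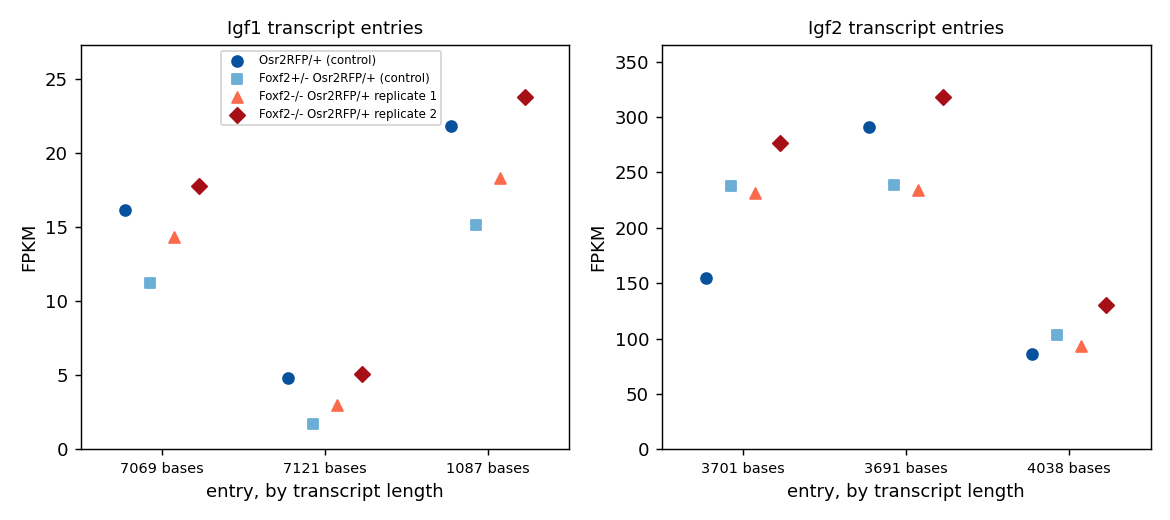
Expression level (FPKM) of the transcript entries of Igf1 (left) and Igf2 (right), named by transcript length, with 1 point for each embryo; 2 Igf1 entries listed at near 0 are left out. The Igf2 entry of 3701 bases is lowest in control 1 (155 FPKM) and lies at 231 to 276 FPKM in the other 3 embryos.

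The receptors were slightly higher in both mutants than in both controls. Igf1r, the signalling receptor, has 21 exons on the plus strand at chr7:75097143-75378553 (mm9) and had 19.4 and 18.9 FPKM in the controls, against 20.9 and 21.2 FPKM in the mutants. The groups were apart, with a log2 fold change of 0.14 (SE 0.071, limma adjusted p = 0.475) and a fold interval of 0.968 to 1.25. Igf2r, the clearing receptor, has 48 exons on the minus strand at chr17:12875272-12962572 (mm9) and had 18.4 and 16.2 FPKM in the controls, against 20.2 and 20.8 FPKM in the mutants. Its log2 fold change was 0.25 (SE 0.092), with an unadjusted limma p of 0.0466, an adjusted p of 0.408 and a fold interval of 1.004 to 1.40. The 2 receptors had about the same level, with an Igf1r to Igf2r ratio of 1.06, 1.17, 1.04 and 1.02 in controls 1 and 2 and mutants 1 and 2. Insr, the insulin receptor, which can also pair with Igf1r and bind Igf2, was at 7.82 and 7.23 FPKM in the controls, against 7.41 and 7.54 in the mutants (log2 fold change -0.0088, SE 0.0929, limma adjusted p = 0.980).

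**Figure D4:**
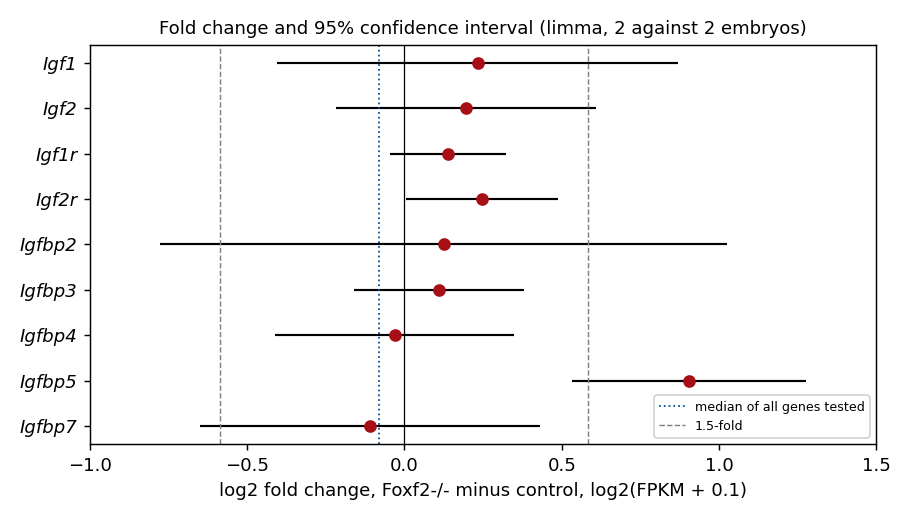
Log2 fold change (mutant minus control, on log2(FPKM + 0.1)) of the 9 Igf genes past the filter, as points with 95% confidence intervals from limma, beside the 1.5-fold lines and the median of all genes tested. The interval of Igfbp5 runs from 1.45-fold to 2.42-fold, and the points of the other 8 genes lie within 0.25 of 0.

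Over the 9 genes past the filter, 0 passed the limma test (adjusted p under 0.05 and over 1.5-fold), which called 0.338% of all genes tested in either direction. Igf2r and Igfbp5 had an unadjusted p under 0.05, as had 12.159% of all genes tested. With 2 against 2 embryos the exact permutation test of a single gene cannot go below p = 0.33. The study's fold criterion, more than 1.5-fold against each control genotype, was met by Igfbp5 upward and by no Igf gene downward, where 2.39% of all genes met it in either direction and 1.55% upward. Leaving out entries shorter than 200 bases, 0.46% of genes met it upward, 34 of 7399. The log2 fold changes of 7 Igf genes were above 0 and those of 2, Igfbp4 and Igfbp7, were below (Igfbp4 was at 0.05 after the rescaling described next), with a median of 0.14 against -0.08 for all genes tested. For 4 of the 9 genes, Igf1r, Igf2r, Igfbp3 and Igfbp4, the 95% interval lay within 1.5-fold in both directions. For Igf1, Igf2, Igfbp2 and Igfbp7 it did not, so a 1.5-fold change lay within the interval of each.

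The groups did not overlap for Igf1r, Igf2r and Igfbp5, each higher in the mutants, and for 0 Igf genes were both mutants lower. Among all genes tested 8.76% were apart upward and 37.7% downward, so that 18.8% of the genes apart were higher in the mutants. That split depended on the scale of the libraries: with the embryos rescaled by median ratios, 21.2% of all genes were apart upward and 49.2% of the genes apart were higher. On the rescaled values Igf2 and Igfbp3 joined the 3, giving 5 of 9 genes apart upward, and the log2 fold change of Igfbp5 was 0.99, with a limma adjusted p of 0.153.

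All 10 Igf genes had a higher level in mutant 2 than in mutant 1. The log2 difference between the 2 mutants ranged from 0.02 for Igf1r to 0.49 for Igfbp2, while its median over all genes tested was 0.08, and 69.2% of those genes were higher in mutant 2. After rescaling, 8 of the 10 were higher in mutant 2, and the share of all genes after rescaling is not given here. The erythroid sum was also higher in mutant 2, at 2498 FPKM against 944 FPKM, and its part was not tested. Between the controls the genes were split evenly, with 5 of 10 higher in the Foxf2+/- embryo.

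Of 12 listed genes related to the Igf system by family, imprinting or RNA binding, 5 passed the filter, with log2 fold changes between -0.23 and 0.20. Of the 5, 0 passed the limma test, and the median log2 fold change was -0.0088 against -0.08 for all genes tested. H19, the noncoding RNA that is co-regulated with Igf2 in the same imprinted region 72621 bases away, had 352, 373, 388 and 445 FPKM in controls 1 and 2 and mutants 1 and 2 (log2 fold change 0.20, SE 0.110, limma adjusted p = 0.506). The ratio of H19 to Igf2 overlapped between the groups, at 0.661 and 0.643 in the controls, against 0.695 and 0.614 in the mutants. Igf2bp3, an RNA-binding protein that associates with Igf2 mRNA, had 22.8 and 23.0 FPKM in the controls, against 20.3 and 18.6 FPKM in the mutants. Its log2 fold change of -0.23 had an unadjusted limma p of 0.0345 and an adjusted p of 0.403. Its relative Igf2bp2 was at 35.7 to 37.5 FPKM in all 4 embryos (log2 fold change -0.04).

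Of 17 genes for proteases that can cut binding proteins and for protease inhibitors, 7 passed the filter and 0 passed the limma test, with a median log2 fold change of 0.05. Among the 7, the largest log2 fold changes were 0.27 for Plat, the tissue plasminogen activator, -0.21 for Mmp2, a matrix metalloproteinase, and 0.13 for Adamts1, a secreted metalloproteinase (limma adjusted p = 0.572, 0.430 and 0.854). Plat passed the 5 FPKM filter only through mutant 2, at 5.15 FPKM. Pappa2, which cuts Igfbp5, had 6.00 and 3.73 FPKM in the controls, against 4.51 and 4.66 FPKM in the mutants, and Pappa, which cuts Igfbp4, was below the filter at 1.05 to 1.52 FPKM. These 2 genes were named after their values were seen.

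Of 42 genes that relay the receptor signal, 36 passed the filter and 0 passed the limma test or met the 1.5-fold criterion. Their median log2 fold change was -0.06 against -0.08 for all genes, with 10 above 0 and 26 below, and the lowest adjusted p was 0.397. The groups did not overlap for 5 of the 36 genes upward and 16 downward, beside 8.76% and 37.7% of all genes tested, a split that depends on the scale of the libraries. The 3 with an unadjusted p under 0.05, as had 12.159% of all genes tested, were all lower in the mutants: Rheb, the small GTPase that activates mTOR, and Pik3r1 and Pik3r3, regulatory subunits of phosphoinositide 3-kinase. Rheb had 20.3 and 17.1 FPKM in the controls, against 13.8 and 14.5 FPKM in the mutants (log2 fold change -0.39, SE 0.108). Foxo1, a transcription factor that Akt holds inactive, had 4.20 and 4.59 FPKM in the controls, against 5.32 and 5.75 FPKM in the mutants (log2 fold change 0.33, SE 0.126). Foxo1 passed the 5 FPKM filter only through the mutants, where it was higher. The adjusted limma p of Rheb and Foxo1 was 0.397 and 0.408.

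**Figure D5:**
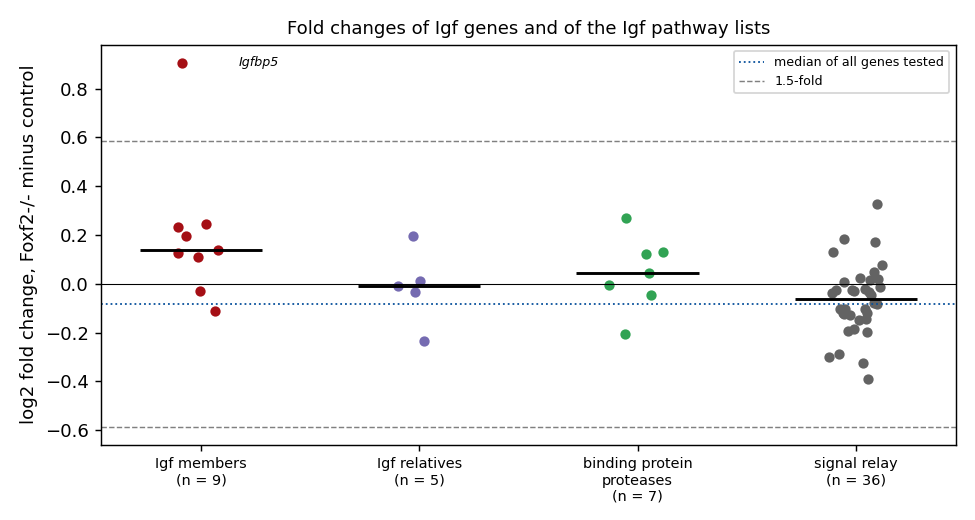
Log2 fold changes (mutant minus control) of the genes past the filter in 4 sets, with 1 point for each gene: the Igf ligands, receptors and binding proteins, their relatives, proteases and inhibitors of the binding proteins, and the signal relay. Igfbp5 at 0.91 lies above every other point, and the genes of the relay centre on -0.06.

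The genes whose pattern over the 4 embryos was nearest to that of Igfbp5 were found by the Euclidean distance between log2(FPKM + 0.1) values centred on each gene's mean, among genes with entries of at least 200 bases. Spon1, which encodes the matrix protein spondin, was nearest (distance 0.148), with 4.23 and 3.97 FPKM in the controls, against 7.54 and 9.16 in the mutants. It was followed by Hist1h4k (0.182) and Ptx3 (0.215), which encode a histone and a secreted pentraxin. Lrrc32, a cell surface protein that holds latent TGF-beta, was also among the nearest (0.234). Hist1h4k belongs to a set of near-identical histone genes, so its value is uncertain. The log2 fold changes of these 4 genes lay between 0.74 and 1.003. Spon1, Ptx3 and Lrrc32 passed the 5 FPKM filter only through the mutants, where they were higher, so the filter itself favoured such patterns. With 4 embryos many genes can share a pattern, and the distances are a description.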

How the data were processed

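RNA-seq had been performed on RFP-positive cells sorted from the palatal shelves of 4 mouse embryos. Per the labels and the study's methods, libraries were made with the Illumina Nextera kit, and single-end reads were aligned to mm9 with Bowtie 0.12.7 and Tophat. The authors deposited 1 table of 28107 RefSeq transcript entries for each embryo, in Cufflinks form, with FPKM (fragments, here single-end reads, per kilobase of transcript and scaled to the mapped reads of the library) and read coverage, a signal not divided by depth. The Cufflinks version is not given in the sources used here. The 2 control genotypes were pooled, as in the study. Its own test needs read numbers and was not used.

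FPKM was summed over the entries of each gene symbol; 10 of 22096 symbols with a failed estimate were left out. The 7698 genes with at least 5 FPKM in at least 1 embryo were tested on log2(FPKM + 0.1) with limma 3.58.1 (variance trend, R 4.3.3), 2 against 2 embryos, with Benjamini-Hochberg adjustment over all of them. A gene was called at adjusted p under 0.05 and over 1.5-fold. A second criterion, without a test, was a mutant mean over 1.5-fold from each control in the same direction. Fold changes on this scale understate changes of low genes. Read numbers are unknown and whole reads could not be recovered. The ratio of coverage to FPKM put the depth relative to control 1 at 1.19 in control 2, 1.02 in mutant 1 and 1.14 in mutant 2, so depth differed little between the embryos. The scripts were tested on simulated data.

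The members and lists were chosen with earlier results of these data known. Named genes were all 10 members, Foxf2, Insr and H19, the 3 genes with the largest absolute log2 fold change in each other list, and the 5 genes nearest to Igfbp5. Of these, 2 are not reported here. Pappa, Pappa2, Pik3r1, Pik3r3, Igfbp1, Igfbpl1, Igfals, Ins1, Ins2, Insrr and Igf2as were named outside this rule after their values were seen. Promoter windows came from RefSeq (GRCm38.p6), which is another build than that of the tables, and were matched by symbol; those of Igfbp2 and Igfbp5 were placed on mm9 by exact sequence match. Another scaling, pseudocounts, filters, fits and the removal of each embryo were tried as alternatives.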

Additional observations from a re-analysis of the deposited data

How the results depend on the processing

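Igfbp5 was higher in the mutants in all 15 alternatives computed for it, with a log2 fold change of 0.71 to 1.10 and an adjusted p of 0.0461 to 0.803. Robust estimation in limma raised the count of Igf genes called from 0 to 1, Igfbp5, and the count over all 7698 genes tested from 26 to 37. The fold criterion was met by 2 genes without a filter, Igfbp5 and Igfbp6, and by 0 at more than 2-fold. The count of genes whose groups did not overlap in either direction was 5 after rescaling, all higher in the mutants, beside 21.2% of all genes apart upward. Leaving out an embryo, which leaves fewer values to overlap, gave counts of 5 to 7 that include genes lower in the mutants. Without control 1, for example, Igfbp2 and Igfbp7 were lower in both mutants than in control 2. The share of all genes is not given here for the counts without an embryo. At more than 1.2-fold, 2 genes of the other Igf lists met the criterion, Foxo1 upward and Rheb downward. The share of all genes that met the criterion without a filter, at 2-fold and at 1.2-fold is not given here. Foxo1 had passed the filter only through the mutants. Leaving out each embryo in turn gave log2 fold changes of -0.0708 to 0.536 for Igf1, -0.33 to 0.58 for Igfbp2, -0.00789 to 0.228 for Igfbp3, -0.22 to 0.16 for Igfbp4 and -0.301 to 0.0806 for Igfbp7, so each turned direction without at least 1 embryo. Igfbp4 was at 0.0502 after rescaling, and Igfbp7 at 0.015 with the number of null alleles as a linear term; the cause was not tested. Igf2, Igf1r, Igf2r and Igfbp5 kept their direction in all 15 alternatives. For Igf1r, Igf2r and Igfbp5, whose groups did not overlap, leaving out 1 embryo could not turn it. The log2 fold change of Igf2 was 0.00698 without mutant 2 and 0.0479 with only the highest entry of each gene. No paired analysis was possible because the labels number only the mutants.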

Other observations

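Several genes of the wider insulin and Igf family were below the filter. Ins1 and Ins2, the insulin genes, Igfals, the serum partner of the Igf ligands, and Igfbpl1 were listed at 0 in all 4 embryos. Insrr, an orphan relative of the insulin receptor, had 0.0561 and 0.171 FPKM in the controls, against 0.0642 and 0.397 FPKM in the mutants. Igf2as, which is transcribed from the strand opposite Igf2, had 1.47 and 1.74 FPKM in the controls, against 1.85 and 2.40 FPKM in the mutants. Because the Nextera kit does not mark strand, its reads cannot be told from those of Igf2 where the 2 overlap.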
